A study of Mus musculus with 12 samples.

Results

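The 10 genes described here are neural and SoxC genes: Sox4, Sox11, Sox3, Pax6, Neurod1, Nes, Gap43, Stmn2, Tubb3 and Map2, of 18193 genes named on the array. A probe set was taken where the platform annotation gives exactly one of these symbols and no other. That rule found 34 of 45037 probe sets, of which 24 were bright enough to test. Each gene was represented by its brightest probe set over the 12 arrays, and its other probe sets served as a check. All 10 genes passed the filter with that probe set.

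Expression was measured in D3 cells, an established mouse embryonic stem cell line, after 7 days in standard medium with 15% serum. The 4 conditions, with 3 arrays each, were LIF-free medium with lithium, LIF-free medium, medium with LIF and lithium, and medium with LIF. LIF, the cytokine that keeps such cells self-renewing, was used at 1000 units per ml, and the labels give lithium as 50 nM. Lithium is used as an inhibitor of GSK3 at millimolar concentrations, and whether it acted on GSK3 in these cultures was not measured on the arrays. The cells were 1 line, no genotype differed between conditions, and the labels do not say whether feeder cells were present. The labels call the arrays biological replicates 1 to 3, and the series' text describes 3 independent experiments behind each replicate. Whether RNA was pooled is not given, so p values measure the spread between these arrays.

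Sox4 and Sox11 are SoxC transcription factors, which are active in progenitors of many tissues and in newly born neurons. Sox3 and Pax6 are transcription factors of the neural plate and its progenitors, and Neurod1 is a basic helix-loop-helix factor that drives neuronal and endocrine differentiation. Nestin (Nes) is an intermediate filament of neural progenitors that other dividing cells also make, whereas Gap43, Stmn2, Tubb3 and Map2 code for proteins of axons, growth cones, microtubules and dendrites. Embryonic stem cells that leave self-renewal can enter neural or other lineages, depending on the medium.

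Removal of LIF split the 10 genes. Sox4, Sox11 and Gap43 rose, Stmn2 and Neurod1 fell, and Sox3, Pax6, Nes, Tubb3 and Map2 did not pass the test. The same 5 genes passed in the same direction without and with lithium. These comparisons share no array, but their tests share an estimate of the spread from all 12 arrays, so they are no independent repeats. In LIF-free against LIF cells, 9.31% of all 27022 probe sets tested were called (2515, adjusted p under 0.05 in limma with Benjamini-Hochberg adjustment; 5260 with the replicate number as a block), 5.4% higher and 3.91% lower. In LIF-free plus lithium against LIF plus lithium cells 12.5% were called, 7.53% higher and 4.93% lower. In the average of both withdrawals, with 6 arrays on each side, 24.7% were called, 13.9% higher and 10.8% lower, against 3 and 2 of these 10 genes in each of the 3 comparisons. The genes were chosen with earlier results known, so their share is a description. Their median log2 change was 0.30 in that average, beside 0.02 over all probe sets tested.

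Sox4 was higher on every array from LIF-free medium. Its MAS5 signal, in arbitrary units, was 1309, 1350.2 and 1118 in LIF-free plus lithium cells and 1468, 1424 and 1131 in LIF-free cells, for replicates 1, 2 and 3. In LIF plus lithium cells it was 529, 405 and 234, and in LIF cells 745, 328 and 283. Every LIF-free array was above every array with LIF, and replicate 1 was the highest within both conditions with LIF. Sox4 averaged 1341 ± 183 in LIF-free cells, against 452 ± 255 in LIF cells (SD, n = 3 each), a log2 change of 1.70 ± 0.33 (SE; limma adjusted p = 0.00819). With lithium in both media the means were 1259 ± 124 in LIF-free cells and 389.5 ± 148 in LIF cells (SD, n = 3 each), a log2 change of 1.77 ± 0.33 (adjusted p = 0.00512). The average of both withdrawals was a 3.32-fold rise (adjusted p = 0.000225). In a bulk culture, more cells expressing a gene and more RNA per expressing cell cannot be told apart.

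Sox11, the second SoxC gene, was also higher on every array from LIF-free medium. Its signal was 453, 536 and 312 in LIF-free plus lithium cells and 417, 429 and 368 in LIF-free cells. It was 192, 118 and 79.5 in LIF plus lithium cells, and 233, 102 and 99.8 in LIF cells. The conditions with and without LIF did not overlap, and replicate 1 was again the highest of the arrays within each condition with LIF. Sox11 changed by a log2 of 1.60 ± 0.35 without lithium (SE; limma adjusted p = 0.0137) and by 1.80 ± 0.35 with lithium (adjusted p = 0.00596), and the average was a 3.24-fold rise (adjusted p = 0.000365). Without lithium its call was lost when replicate 2 or 3 of the LIF cells or replicate 2 of the LIF-free cells was left out (adjusted p = 0.0671, 0.0559 and 0.0572), and when all its probe sets were averaged (log2 change 1.13, adjusted p = 0.0859). Sox12, the third SoxC gene, had a log2 change of -0.05 ± 0.17 in the average (SE; adjusted p = 0.872), with 60.7 ± 8.5 signal units in LIF-free cells and 76.7 ± 20.8 in LIF cells (SD, n = 3 each).

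The sequences just upstream of Sox4, Sox11 and Neurod1 are shown because these are the transcription factors that changed and had an entry in the RefSeq promoter table. Each is the 250 bases before the annotated start in build GRCm38.p6, read 5′ to 3′ on the gene's minus strand. They lie at chr13:28953700-28953949 for Sox4, chr12:27342719-27342968 for Sox11 and chr2:79456637-79456886 for Neurod1. Capitals mark E-boxes (CANNTG) and CCAAT boxes (CCAAT), searched on both strands, so that a CCAAT box on the other strand reads ATTGG.
Sox4: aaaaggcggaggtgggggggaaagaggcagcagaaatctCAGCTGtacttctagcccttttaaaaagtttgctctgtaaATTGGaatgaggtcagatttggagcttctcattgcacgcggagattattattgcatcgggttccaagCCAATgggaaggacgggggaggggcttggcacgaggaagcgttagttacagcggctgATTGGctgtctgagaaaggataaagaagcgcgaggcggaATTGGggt
Sox11: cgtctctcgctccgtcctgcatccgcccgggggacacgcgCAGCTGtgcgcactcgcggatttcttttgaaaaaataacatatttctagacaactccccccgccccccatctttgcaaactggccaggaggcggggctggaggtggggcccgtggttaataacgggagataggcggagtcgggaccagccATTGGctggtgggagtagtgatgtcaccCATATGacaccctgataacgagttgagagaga
Neurod1: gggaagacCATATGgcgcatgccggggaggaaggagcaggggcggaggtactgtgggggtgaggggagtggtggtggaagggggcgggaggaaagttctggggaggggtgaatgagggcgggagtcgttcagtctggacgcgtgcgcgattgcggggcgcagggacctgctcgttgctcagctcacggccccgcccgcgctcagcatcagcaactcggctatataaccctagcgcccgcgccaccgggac

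The Sox4 stretch held 4 CCAAT boxes and the Sox11 stretch 1, whereas the Neurod1 stretch held 0. This motif was picked after these sequences were seen, so the contrast is only a description. Both SoxC stretches held an E-box spelled the same way, CAGCTG, at 211 bases before the Sox4 start and 210 bases before the Sox11 start. This likeness was read off the same sequences, and the share of windows with CAGCTG or with that position was not counted. Neurod1 held 1 E-box, spelled CATATG, as was the second E-box of Sox11. Of 32841 mouse promoter windows of the same length, 66.2% held an E-box and 33.9% a CCAAT box. The letters of a STAT site (TTCNNNGAA), a TCF/LEF site (TCAAAG), a SOX site (AACAAT), an octamer (ATGCAAAT) and a TATA box (TATAAA) were in none of the 3 stretches. These were in 7.02%, 13.8%, 9.43%, 1.6% and 12.4% of all windows. GC content was 50.8% for Sox4, 58% for Sox11 and 67.6% for Neurod1, beside a median of 52.4%. A match or its absence describes these letters in this window only. TATAAA was searched letter for letter, so the tatataa near the gene start in the Neurod1 stretch was not counted. Of the 10 genes, 7 matched the table, and Gap43, Stmn2 and Sox3 did not.

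Sox3 and Pax6, which stand at the start of neural specification, did not pass the test in any comparison. Sox3 read 10.2, 31.96 and 28.2 in LIF-free plus lithium cells, 33.2, 31.0 and 28.9 in LIF-free cells, 30.4, 37.6 and 16.3 in LIF plus lithium cells, and 19.0, 27.3 and 21.9 in LIF cells. The LIF-free arrays were all above the LIF arrays without lithium, by a log2 change of 0.47 that did not pass (adjusted p = 0.568), and the arrays with lithium overlapped. Across 3 against 3 arrays, 27.5% of all probe sets tested did not overlap in the withdrawal without lithium and 33.4% in the withdrawal with lithium, against 6 and 5 of these 10 genes. Over 6 against 6 arrays it was 14.1%, against 5 of the 10. In the average of both withdrawals Sox3 had a log2 change of 0.06 with a 95% interval of -0.60 to 0.72.

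A second Sox3 probe set was too dim for the filter and gave another picture. It read 1.99 to 8.49 in LIF-free plus lithium cells, 6.197, 1.67 and 10.8 in LIF-free cells, 2.66, 6.36 and 4.35 in LIF plus lithium cells, and 18.5, 15.6 and 21.8 in LIF cells. It was thus higher in the LIF cells than in every other array. In a fit without the filter its log2 change with lithium in the presence of LIF was -2.14 (limma adjusted p = 0.995), and on removal of LIF without lithium it was -1.93 (adjusted p = 0.205). Neither passed.

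Pax6 lay near the limit of measurement. Its brightest probe set read 18.2, 1.80 and 10.1 in LIF-free plus lithium cells, 6.19, 12.2 and 14.0 in LIF-free cells, 16.4, 8.21 and 3.12 in LIF plus lithium cells, and 8.91, 8.63 and 6.53 in LIF cells. All 4 conditions overlapped. The filter stood at a signal of 7.52, and the other 4 Pax6 probe sets were below it. The averaged log2 change was 0.12 with a 95% interval of -1.14 to 1.39, which covers a doubling in either direction.

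Neurod1 fell on removal of LIF. It read 7.35, 11.1 and 9.82 in LIF-free plus lithium cells and 4.87, 3.05 and 8.27 in LIF-free cells, against 23.4, 33.7 and 52.3 in LIF plus lithium cells and 23.8, 42.3 and 22.3 in LIF cells. Its highest LIF-free array, at 11.1, was below the lowest array with LIF, at 22.3. The log2 change was -2.50 ± 0.47 without lithium (SE; limma adjusted p = 0.00638) and -1.90 ± 0.47 with lithium (adjusted p = 0.0198), and its averaged level without LIF was 0.218 times that with LIF (adjusted p = 0.000462). Neurod1 was dim in all conditions, so the size depends on the offset: with 16 added to each signal the averaged change was -1.04, still past the threshold (adjusted p = 0.000456). With lithium the call was lost when replicate 2 or 3 of the LIF plus lithium cells or replicate 1 of the LIF-free plus lithium cells was left out (adjusted p = 0.0635, 0.109 and 0.0758).

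Nestin, on its brightest probe set, varied widely between replicates in medium with LIF. It read 26.7, 54.0 and 31.6 in LIF-free plus lithium cells, 22.3, 41.4 and 28.9 in LIF-free cells, 45.7, 22.8 and 2.92 in LIF plus lithium cells, and 26.5, 33.7 and 3.72 in LIF cells. The low readings were replicate 3 of both conditions with LIF. Between arrays of the same number without lithium, the log2 difference was -0.25, 0.30 and 2.96. The averaged change was 1.15 with a 95% interval of -0.26 to 2.57 (adjusted p = 0.236), and a second Nes probe set gave 0.28 (adjusted p = 0.415). That second probe set did not show the low replicate 3. It read 12.6, 17.0 and 17.1 in LIF plus lithium cells and 30.0, 20.3 and 25.4 in LIF cells.

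Gap43, a growth-cone protein that axons make while they extend, had the largest rise of the 10 genes before any offset was added. It read 106, 113 and 159 in LIF-free plus lithium cells and 108, 114 and 181 in LIF-free cells, against 57.2, 28.5 and 16.4 in LIF plus lithium cells and 56.9, 27.1 and 22.2 in LIF cells. The lowest LIF-free array was above the highest array with LIF. Gap43 changed by a log2 of 2.01 ± 0.43 without lithium (SE; limma adjusted p = 0.0131) and 2.05 ± 0.43 with lithium (adjusted p = 0.00964), and the average was a 4.08-fold rise (adjusted p = 0.000476). The size depends on the offset, as Gap43 was dim in medium with LIF. With 16 added to each signal its averaged log2 change was 1.57, against 1.688 for Sox4 and 1.573 for Sox11, all still past the threshold. Only 1 Gap43 probe set was annotated. Its call without lithium was lost when replicate 2 or 3 of the LIF cells or replicate 3 of the LIF-free cells was left out (adjusted p = 0.0594, 0.0537 and 0.0538).

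Stmn2, a stathmin that destabilises microtubules in growth cones, moved the other way. It read 163, 183 and 209 in LIF-free plus lithium cells and 202, 178 and 255 in LIF-free cells, against 412, 339 and 339 in LIF plus lithium cells and 361, 333 and 432 in LIF cells. All LIF-free arrays were below all arrays with LIF. Stmn2 fell by 0.83 on the log2 scale without lithium (SE 0.17; limma adjusted p = 0.0101) and by 0.98 with lithium (adjusted p = 0.00357), so that its averaged level without LIF was 0.534 times that with LIF (adjusted p = 0.000204). Without lithium the call was lost after each array was centred on its median (log2 change -0.64, adjusted p = 0.23) and when replicate 2 of the LIF-free cells was left out (adjusted p = 0.0551).

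Tubb3, a tubulin of neurons, and Map2, a microtubule-associated protein of dendrites, did not pass. Tubb3 read 33.2, 21.7 and 31.985 in LIF-free plus lithium cells, 42.2, 30.6 and 10.2 in LIF-free cells, 39.97, 35.5 and 32.5 in LIF plus lithium cells, and 42.5, 24.4 and 61.9 in LIF cells. Map2 read 24.5, 19.8 and 31.7 in LIF-free plus lithium cells, 26.1, 23.8 and 27.9 in LIF-free cells, 28.6, 10.6 and 13.4 in LIF plus lithium cells, and 27.4, 17.4 and 18.8 in LIF cells. All conditions overlapped for both genes. The averaged change of Tubb3 was -0.55 with a 95% interval of -1.27 to 0.17, and that of Map2 was 0.48 with an interval of -0.11 to 1.06.

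**Figure D1:**
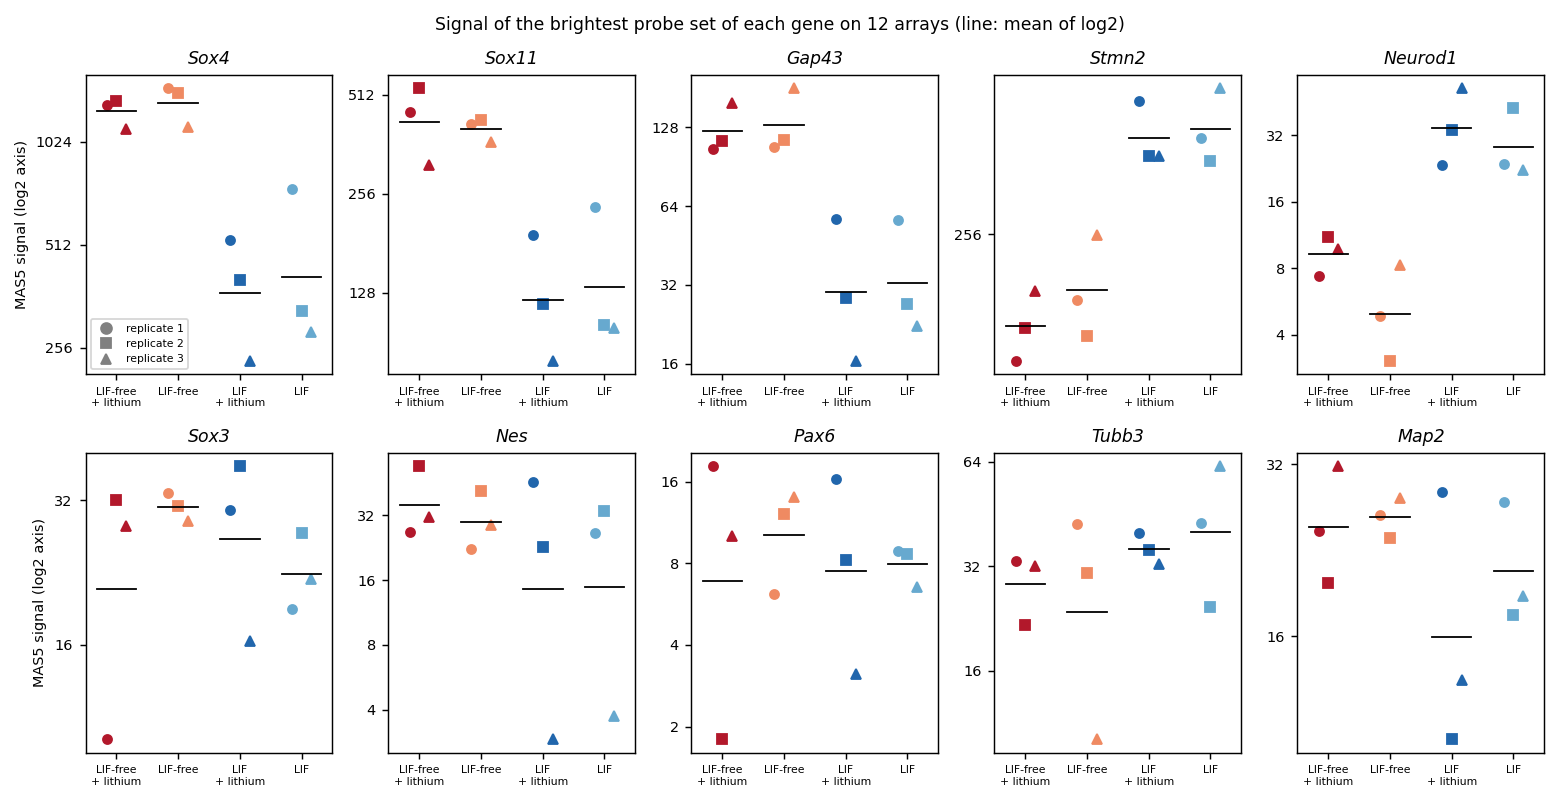
MAS5 signal of the brightest probe set of each of the 10 genes on the 12 arrays, on a log2 axis, by condition, with replicate number as shape and the mean of log2 as a line. Sox4, Sox11 and Gap43 are above the arrays with LIF in all 6 LIF-free arrays, Stmn2 and Neurod1 are below them, and the other 5 genes overlap between the 6 arrays without and the 6 with LIF.

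Most other tested probe sets of the called genes moved the same way. Of 12 such probe sets, 11 were called in the averaged withdrawal, all in the direction of the brightest one of their gene. A further 2 Sox4 probe sets were below the filter. For Sox4, 5 of 6 tested probe sets rose, and the remaining one, with a log2 change of 0.67, did not pass (adjusted p = 0.253). For Sox11, all 6 tested probe sets rose, by log2 changes of 0.91 to 1.70. Both Stmn2 and both Neurod1 probe sets fell. In the withdrawal without lithium alone, 4 of 6 Sox4 probe sets and 1 of 6 Sox11 probe sets were called, and with lithium 5 of 6 and 4 of 6. The probe sets of a gene read the same RNA on the same arrays and are no separate replicates.

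**Figure D2:**
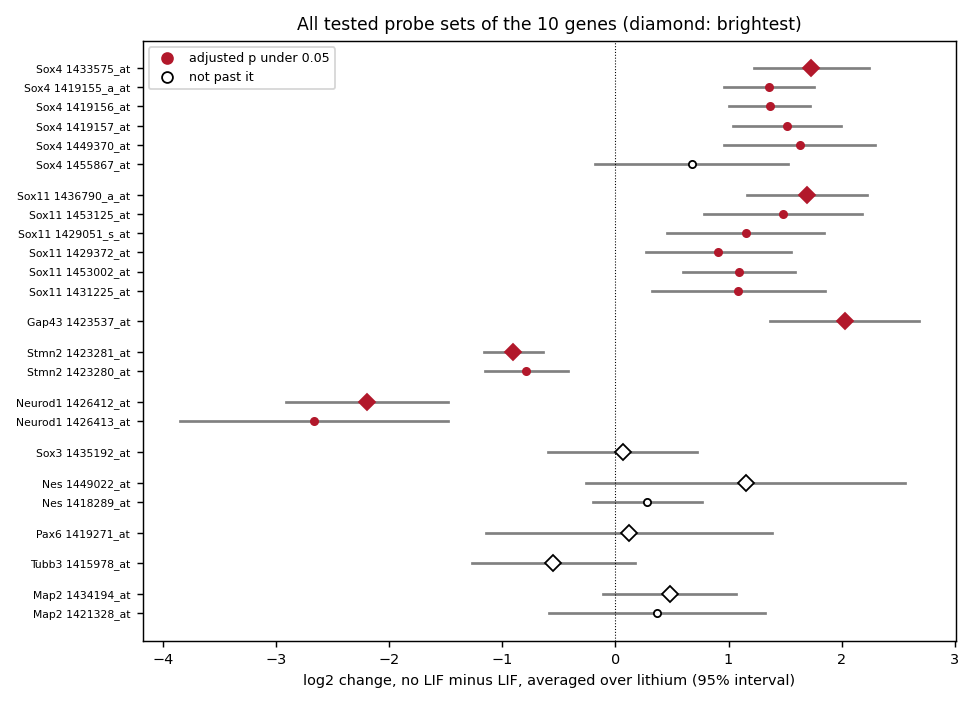
Log2 change without LIF minus with LIF, averaged over lithium, for the 24 tested probe sets, with 95% intervals; diamonds mark the brightest set of a gene and filled points those past an adjusted p of 0.05. The 6 Sox11 sets and 5 of the 6 Sox4 sets are filled to the right of 0, and both sets of Stmn2 and of Neurod1 are filled to the left.

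Lithium did not change any of the 10 genes past the threshold on any tested probe set, in medium without or with LIF. No probe set of the whole array was called for lithium in either medium or for the interaction of LIF and lithium (0% in each), while 347 probe sets without LIF, 749 with LIF and 666 for the interaction had an unadjusted p under 0.05 in limma. None of the 10 brightest probe sets had such a p. Further probe sets did: one of Sox4, at 43.4, 44.1 and 27.8 in LIF plus lithium cells against 71.0, 54.0 and 66.1 in LIF cells, had a log2 change of -0.75 (limma adjusted p = 0.999). One of Nes, at 12.6, 17.0 and 17.1 in LIF plus lithium cells against 30.0, 20.3 and 25.4 in LIF cells, had -0.69 (adjusted p = 0.999). Both also had an unadjusted p under 0.05 for the interaction, with log2 values of 0.81 and 1.15 (adjusted p = 0.999 each). In neither did lithium and no lithium overlap in medium with LIF, whereas the brightest Sox4 and Nes probe sets overlapped, with log2 changes of -0.15 and -0.04. Among the brightest probe sets, the largest change by lithium was that of Neurod1 in LIF-free medium, at 9.42 ± 1.89 with lithium and 5.398 ± 2.65 without (SD, n = 3 each). That log2 change of 0.90 had a 95% interval of -0.11 to 1.91 (unadjusted p = 0.0765, adjusted p = 1), with lithium higher in 3 of 3 pairs of equal number and the conditions overlapping. The 95% interval for Sox4 was -0.80 to 0.63 in LIF-free medium and -0.87 to 0.56 in medium with LIF, so a change within these bounds is not excluded. For Stmn2, the gene with the narrowest interval, it was -0.56 to 0.18 without LIF and -0.41 to 0.32 with LIF. Of the 10 brightest probe sets, 0 did not overlap between lithium and no lithium in either medium, where 6.01% of all probe sets without LIF and 6.72% with LIF did not. Besides the Sox4 and Nes probe sets above, the dim second Sox3 probe set did not overlap in medium with LIF, nor did a Nes probe set below the filter in LIF-free medium (log2 change 1.57 without the filter, adjusted p = 1).

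**Figure D3:**
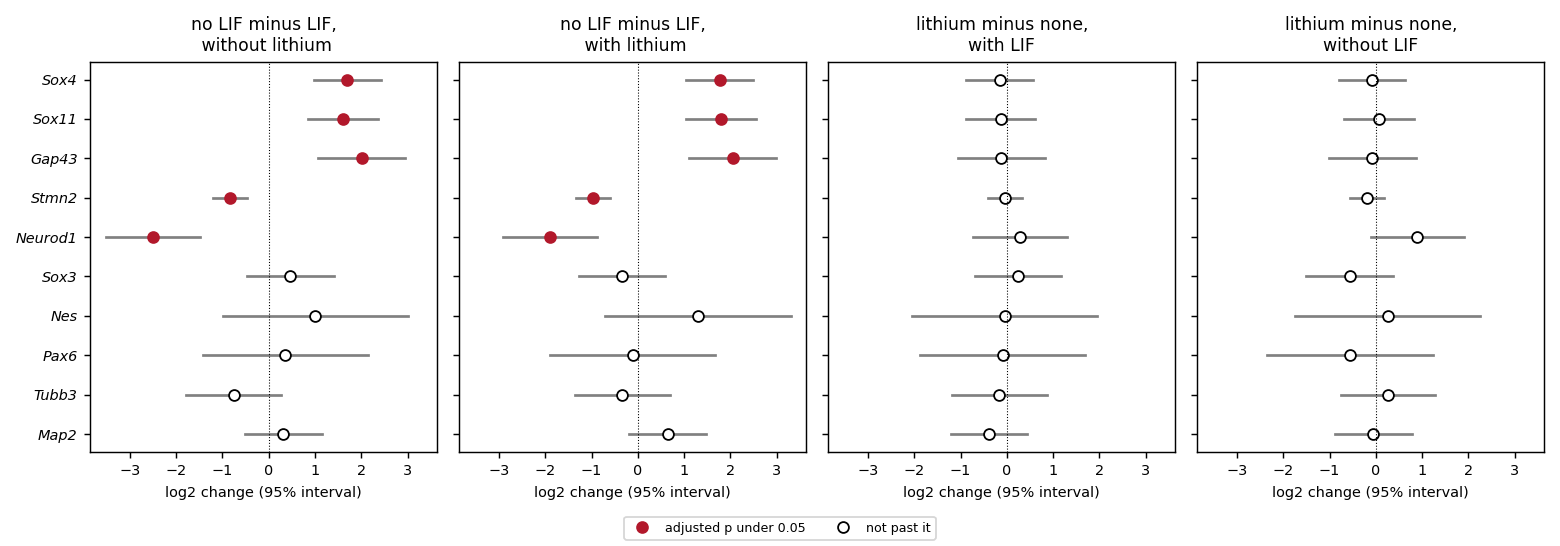
Log2 changes of the 10 genes with 95% intervals in the withdrawal of LIF without and with lithium, and for lithium with and without LIF; filled points passed an adjusted p of 0.05. The 5 filled genes are the same in both withdrawals, and no gene is filled for lithium.

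The order of the levels separated conditions by LIF and not by lithium for the 5 called genes. For Sox4 the order of means was LIF-free, LIF-free plus lithium, LIF, and LIF plus lithium, at 1341, 1259, 452 and 389.5. The first and second, and the last and next to last, did not differ beyond their spread, and the step between them is the withdrawal. Sox11 had LIF-free plus lithium first at 434 ± 113 and LIF-free next at 405 ± 32.2, then LIF at 145 ± 75.9 and LIF plus lithium at 130 ± 57.2 (SD, n = 3 each). Gap43 ran LIF-free, LIF-free plus lithium, LIF and LIF plus lithium, at 134, 126, 35.4 and 34.1, all from high to low. From low to high, Stmn2 ran LIF-free plus lithium, LIF-free, LIF plus lithium and LIF, at 185, 212, 363.5 and 375.5, and Neurod1 ran LIF-free, LIF-free plus lithium, LIF and LIF plus lithium, at 5.398, 9.42, 29.5 and 36.4.

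Sox4 and Sox11 varied together within conditions, and Gap43 followed them only in medium with LIF. Over the 12 arrays the log2 signals of Sox4 and Sox11 had a Pearson r of 0.988, and 0.947 once each condition's mean was taken off. Sox4 and Gap43 had 0.950 and 0.743, but in both LIF-free conditions replicate 3 was the highest for Gap43 and the lowest for Sox4 and Sox11. Sox4 and Neurod1 had -0.900 and -0.531, and the falling genes Stmn2 and Neurod1 had 0.809 over all arrays and 0.15 within conditions. These describe 12 arrays that share the LIF difference and the scaling of each array. In both conditions with LIF, replicate 1 had the highest Sox4, Sox11 and Gap43. The summed signal of 12 pluripotency markers on the replicate 1 arrays was 12550 in LIF plus lithium and 11150 in LIF cells, the lowest of each condition, against 14020 to 17090 on the other 4 arrays with LIF. The summed signal of trophoblast markers was 5531 and 6132 on those 2 arrays, against 3482 to 4699 on the other 4. Replicate 1 also had the lowest pluripotency sum in both LIF-free conditions, at 3793 with lithium and 5194 without. Its trophoblast sums there were also the highest, at 14500 and 14390. Replicate 3 had the lowest Sox4 and Sox11 in all 4 conditions, so the pattern by replicate number was not limited to medium with LIF. Whether the state of the replicate 1 arrays had a part in the SoxC values was not tested. Without replicate 1 of LIF, the Sox4 change without lithium was 2.13, and without replicate 1 of LIF plus lithium the change with lithium was 2.03.

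**Figure D4:**
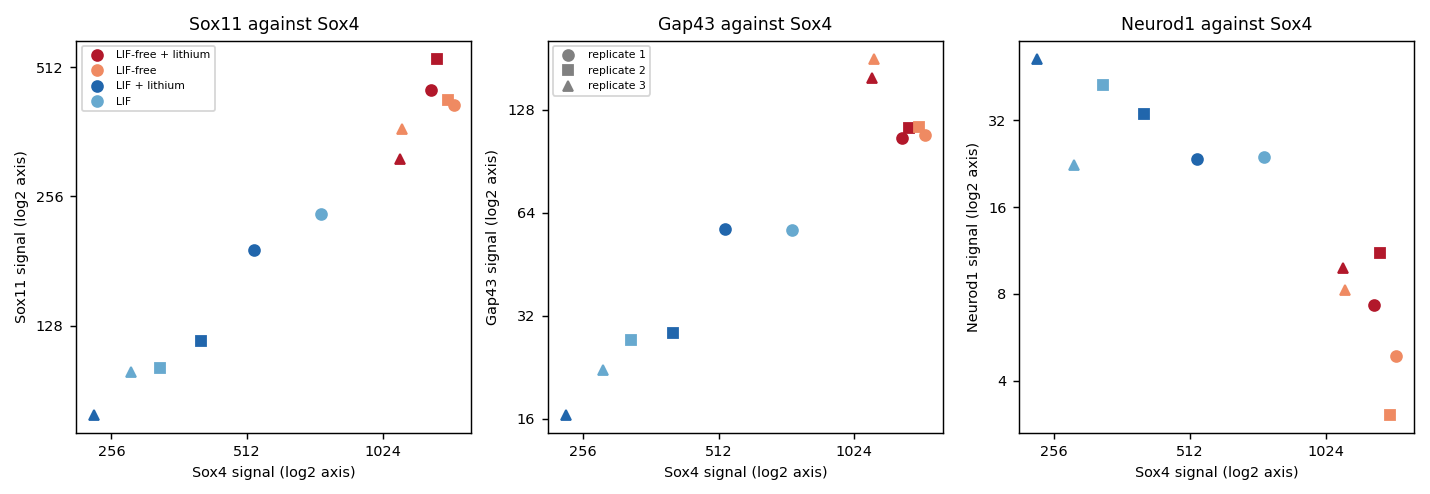
Sox11, Gap43 and Neurod1 signal against Sox4 signal on the 12 arrays, both on log2 axes, coloured by condition with replicate number as shape. Replicate 1 of both conditions with LIF lies nearest to the LIF-free arrays in the Sox11 and Gap43 plots.

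The genes whose signal over the 12 arrays was most like that of each called gene were sought among 12199 genes by Pearson r of log2 signal. For Sox4 they were Fmnl2 (r = 0.994), Greb1l (0.991) and Ror1 (0.991), and for Sox11 they were Jade2 (0.989), Irs1 (0.989) and Fmnl2 (0.988). Gbp2b (0.990), Snapin (0.989) and Gbp2 (0.989) were most like Gap43. Fam25c (0.978), Rasgrp2 (0.978) and Tdgf1 (0.970), a co-receptor for Nodal, were most like Stmn2. Dazl (0.973), an RNA-binding protein of germ cells, Kif14 (0.963) and Mgme1 (0.952) were most like Neurod1. These r values include the difference that LIF made in each gene, and the arrays share their scaling.

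Genes that share roles with the 10 were divided as well. Counts of each list in the averaged withdrawal stand beside 13.9% higher and 10.8% lower over all probe sets tested. Genes below the filter do not enter these counts or the medians. Of 36 genes on the array for the neural plate and progenitors, 18 were bright enough to test. Among these 18, 9 rose and 1 fell in the averaged withdrawal, with a median log2 change of 0.80. The filter used the mean of all arrays, so a gene dim in one medium could pass on its level in the other. Dach1 did so, with means of 17.47 in LIF-free and 7.236 in LIF cells. Whether this tilted the count was not tested. Irx3, a homeobox factor, averaged 118 ± 24.5 in LIF-free plus lithium cells and 112.5 ± 4.50 in LIF-free cells, against 31.9 ± 4.28 in LIF plus lithium cells and 38.5 ± 13.8 in LIF cells (SD, n = 3 each), a log2 change of 1.74 (limma adjusted p = 4.68e-05). Prom1, a membrane glycoprotein of progenitors, changed by 1.51 (adjusted p = 0.000824) and Nr2f2, a nuclear receptor, by 2.06 (adjusted p = 0.00174; 1.30 with a pseudocount of 16). In the separate comparisons 3 genes of the list were higher without lithium, where 5.4% of all probe sets were, and 7 with lithium, where 7.53% were, and 0 were lower in either. Whether the number differs between them was not tested. Irx3, Prom1 and Nr2f2 are also expressed outside the neural lineage.

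Neuronal structure genes went both ways. Of 39 tested cytoskeleton and synapse genes, 8 rose and 11 fell, with a median of -0.13. Mapt, the microtubule protein tau, averaged 17.0 ± 1.93 in LIF-free plus lithium cells and 20.8 ± 3.01 in LIF-free cells, against 111 ± 43.2 in LIF plus lithium cells and 113 ± 55.9 in LIF cells (SD, n = 3 each), a log2 change of -2.50 (limma adjusted p = 3.5e-05). Tubb2b, a tubulin, changed by -1.10 (adjusted p = 0.000116), while Dpysl2, which guides axon growth, changed by 1.17 (adjusted p = 9.89e-05). Among 9 tested proneural and determination factors, 1 rose and 0 fell, a share near that over all probe sets. That gene, Isl1, a homeobox factor also made in heart progenitors, changed by 1.64 (adjusted p = 0.00507; 1.07 with a pseudocount of 16). A second factor of this list was called when replicate 3 of the LIF-free or of the LIF-free plus lithium cells was left out, and with the replicate block.

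Of 7 neuron markers tested, 0 rose and 1 fell: Elavl3, an RNA-binding protein of neurons, changed by -1.57 (adjusted p = 0.0294; -0.65 with a pseudocount of 16). That call was lost under 8 of 18 alternatives: with no filter, and when replicate 3 of LIF, replicate 2 or 3 of LIF plus lithium, replicate 1 or 2 of LIF-free, or replicate 1 or 2 of LIF-free plus lithium was left out, with adjusted p up to 0.0731. The summed signal of 12 neuron markers was 201 to 381 in LIF-free plus lithium cells, 242 to 318 in LIF-free cells, 229 to 331 in LIF plus lithium cells, and 224 to 283 in LIF cells. The 4 ranges overlapped. Nefl was by far the brightest of these markers, with means of 177, 197, 151 and 135 in the same order, so the sums mainly follow it. Dcx, Snap25, Nefm, Slc17a6 and Gad2, which mark neurons, were below the filter in the mean of all arrays. Glial markers gave 1 higher and 1 lower of 5 tested, with Mbp at 0.95 (adjusted p = 0.00196) and Cnp at -0.82 (adjusted p = 0.0167, and 0.0689 after median centring).

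Other Sox genes had 2 higher and 2 lower of 11 tested, near the shares over all probe sets, with a median of -0.05. Sox2, needed in pluripotent and neural progenitor cells, averaged 1351 ± 556.5 in LIF-free plus lithium cells and 1339 ± 294.5 in LIF-free cells, against 2747 ± 101 in LIF plus lithium cells and 2767 ± 573.5 in LIF cells (SD, n = 3 each), a log2 change of -1.08 (limma adjusted p = 0.00115). Sox9, a factor of neural crest, cartilage and other progenitors, changed by 2.43 (adjusted p = 0.00367; 0.86 with a pseudocount of 16) and Sox17, an endoderm factor, by 1.45 (adjusted p = 0.00853). The repressor Rest, which silences neuronal genes in other cells, averaged 538 ± 98.5 and 465 ± 36.9 in LIF-free plus lithium and LIF-free cells, against 858 ± 54.6 and 815 ± 58.5 in LIF plus lithium and LIF cells (SD, n = 3 each), a log2 change of -0.75 (adjusted p = 0.000228). Of 12 genes of Rest's complexes and neural RNA repressors, 2 rose and 2 fell, among them Hdac2 at -0.51 (adjusted p = 0.00071) and Rcor3 at 0.97 (adjusted p = 0.00368). Of that list 7 were called with the replicate block, and 7 without replicate 1 of the LIF cells.

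Neural crest genes had 8 higher and 2 lower of 12 tested, with a median of 0.85. The homeobox factor Msx2 changed by 2.44 (limma adjusted p = 0.000131), the transcription factor Ets1 by 2.06 (adjusted p = 0.000208) and Erbb3, a neuregulin receptor, by 0.80 (adjusted p = 0.000463). Foxd3 and Ngfr of this list had lower means without LIF. Foxd3 averaged 24.98 in LIF-free plus lithium and 25.26 in LIF-free cells, against 38.27 in LIF plus lithium and 46.86 in LIF cells. For Ngfr the means were 24.38, 37.61, 50.83 and 57.64 in the same order. Tfap2c of this list is also a trophoblast marker. Of 4 neuroendocrine genes tested, 1 fell: Chga, a protein of secretory granules, changed by -2.06 (adjusted p = 0.00711; -0.82 with a pseudocount of 16). The count was 3 with the replicate block or without replicate 1 of the LIF cells, and 0 under the stricter filter.

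**Figure D5:**
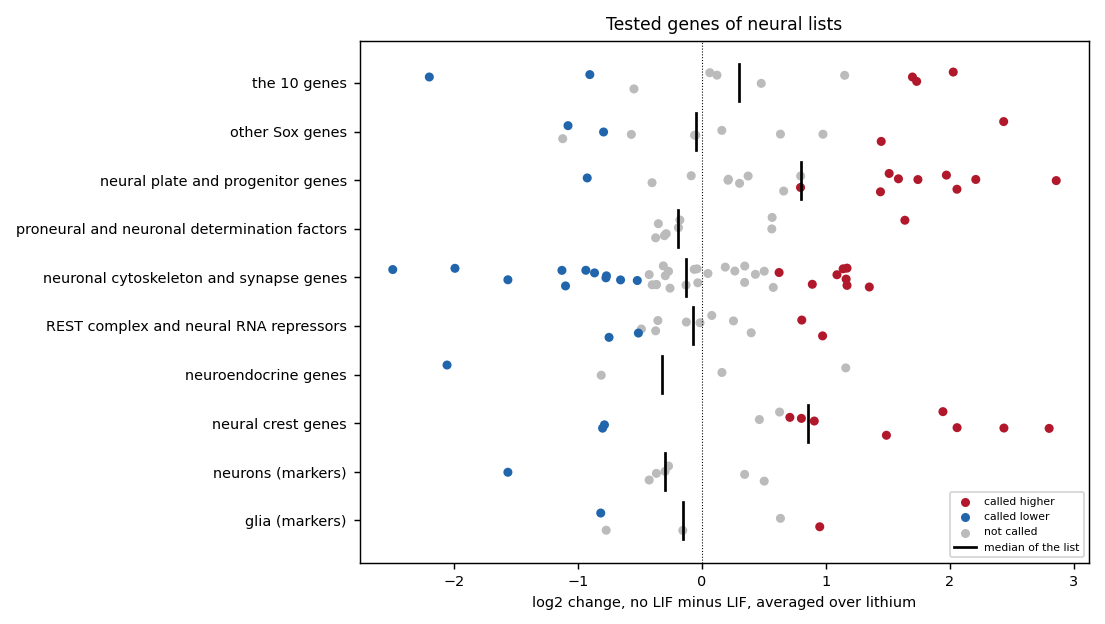
Log2 change without LIF minus with LIF, averaged over lithium, of the tested genes of the neural lists, 1 point per gene, with called genes coloured and the median as a line. The neural plate and neural crest medians are 0.80 and 0.85, and the medians of proneural factors, neuronal structure genes and neuron markers are below 0.

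Markers of other cell types moved with LIF on the same arrays. Of 12 pluripotency markers 11 fell, with summed signals of 3793 to 7868 in LIF-free plus lithium cells, 5194 to 7110 in LIF-free cells, 12550 to 14970 in LIF plus lithium cells and 11150 to 17090 in LIF cells. All 10 trophoblast markers tested rose, with sums of 12150 to 14500 and 12140 to 14390 in LIF-free plus lithium and LIF-free cells, against 3482 to 5531 and 3759 to 6132 in LIF plus lithium and LIF cells. Krt8 and Krt18 were the brightest of them, with means of 5447 and 5990 in LIF-free cells and 1845 and 2209 in LIF cells. Of 12 early mesoderm markers 9 rose and 0 fell, of 10 endoderm markers 4 rose and 2 fell, and of 8 fibroblast markers 3 rose and 1 fell. Their part in the changes of the 10 genes was not tested. A measure of RNA integrity, the Gapdh 3′ to 5′ signal ratio, was 0.739 to 0.802 on LIF-free arrays and 0.798 to 0.860 on arrays with LIF. The same ratio for actin was 1.447 to 1.699 on LIF-free arrays and 1.495 to 1.984 on arrays with LIF. The part of RNA integrity was not tested either.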

How the data were processed

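RNA was read on 12 Affymetrix mouse arrays. Per the submitters' processing notes the authors used MAS5, whose version and settings are not given in the sources used here. What they deposited is a linear signal intensity for each probe set. Every array had a trimmed mean of 100.001, so all were scaled alike. Median signal per array was 10.48 to 19.28. The number of arrays limits the precision.

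From these, 64 Affymetrix controls were removed. A floor of 1 was set (9.14% of all values and 0.146% of those tested lay under it) before the log2 step. Testing was limited to the 27022 probe sets whose log2 mean over the arrays passed the 40th percentile (a signal of 7.52). Symbols came from the platform annotation (34945 probe sets with 1 symbol, 932 with several, 9160 unnamed here). The model, run in limma 3.58.1 under R 4.3.3, gave each condition its own mean, used lmFit and a trended eBayes on 8 residual degrees of freedom, and was two-sided, with Benjamini-Hochberg adjustment over all 27022 and a threshold of 0.05. With 3 arrays against 3 a permutation test cannot go below 0.1. The fit was tested on simulated data. Promoters were scanned with Python 3.11.15 and plots drawn with matplotlib 3.10.9.

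The members and gene lists were chosen with earlier results of these data known. From each list, up to 3 called genes with the smallest p in the averaged withdrawal are named; for each called member, the 3 genes with the highest r. The CCAAT motif was added after the sequences were seen. Equal replicate numbers, from the labels, deviated together. For LIF-free and LIF cells the residual r was 0.438, 0.137 and 0.339 for replicates 1, 2 and 3. It was 0.499, 0.139 and 0.321 for LIF plus lithium and LIF cells, and 0.462, 0.111 and 0.3 for both LIF-free conditions. These count as paired by a cut on the lowest r. For LIF-free plus lithium and LIF plus lithium cells r was 0.451, 0.097 and 0.379, which falls just short of that cut. The main model did not pair arrays in any comparison, so its intervals and p values are unpaired. Only the replicate block, an alternative, used the pairing. Alternatives were quantile normalization, median centring, a pseudocount of 16, no filter or one at the 60th percentile, the replicate block, no trend, only the compared arrays, averaging the probe sets of a gene, and each array left out.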

Additional observations from a re-analysis of the deposited data

How the results depend on the processing

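None of the called changes of the 10 genes turned direction under any alternative. A change of sign between values that passed in neither setting (80 of them) was not counted as a turn. In 1210 values of single genes under alternatives, 1198 kept their side of the threshold and 12 calls were lost. Most of the 1210 were for genes and comparisons not called in the main model, which had no call to lose. The losses were 4 of 21 alternatives for Sox11, 3 of 21 for Gap43 and 2 of 21 for Stmn2, all without lithium. Neurod1 with lithium lost its call in 3 of 20. Each loss is given with its gene in the report where an array, the centring or the averaging of probe sets ended it. The members called numbered 3 to 5 without lithium when single arrays were left out, with 3 without replicate 2 or 3 of the LIF cells or replicate 2 of the LIF-free cells. Lithium and the interaction gave 0 members under every alternative.

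The counts of probe sets called depended more on the processing. Without lithium the 2515 probe sets became 1560 after median centring, 1674 with no intensity trend, 1168 with only the compared arrays and 1039 to 3950 when single arrays were left out, lowest without replicate 2 of LIF-free and highest without replicate 1 of LIF. With lithium the 3368 became 1490 after median centring and 1360 to 4311 when single arrays were left out, lowest without replicate 3 of LIF plus lithium and highest without replicate 3 of LIF. In the average of both withdrawals the 6678 became 3690 after median centring. For lithium with LIF the count of 0 became 2 without replicate 1 of LIF plus lithium, over a range of 0 to 2. The share of calls that were higher was 58% without lithium and 83.1% after centring, and with lithium 60.4% and 34.8%, as centring gave a median of all changes of 0.13 without lithium, against -0.07 uncentred, and of -0.23 with lithium, against 0.11. The replicate block, which pairs arrays of equal number, raised the counts to 5260 without and 5938 with lithium, and changed no member's call.

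Neurod1 gave no value under the filter at the 60th percentile, where it was too dim. Dim genes such as Pax6, Neurod1, Chga and the second Sox3 probe set lie near background, where sizes depend on the pseudocount.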
